A study of Homo sapiens with 5 samples.

Results

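The 8 genes described here are CD24, EPCAM, PTPRF, BAIAP2L1, SPRR2D, SPRR2F, CD276 and ESAM. Several of them are best known from epithelium or from junctions between cells, and all 8 were read in a blood cell line. They were picked by name with their change in this same comparison already known, and all of their probes were taken, which gave 12 of the 19105 probes kept, or 8 of 11041 genes. The cells are K562, a human leukaemia line, established long ago, that has features of early red cells. The 3 knockdown arrays hold K562 cells with a stable, doxycycline-inducible (Tet-on) short hairpin RNA (shRNA) against JMJD1B, a histone demethylase with the current symbol KDM3B, and the 2 control arrays hold stable K562 cells with a control shRNA. Both groups were given 1 µg/ml doxycycline for 48 h. The labels do not give the number of hairpins or clones behind a group, nor whether replicates were separate cultures, so a difference between the stable lines and an effect of the hairpin cannot be told apart. JMJD1B itself was not analysed here, so its depletion in the arrays called knockdown was not checked. Per the series title, the arrays were a screen for JMJD1B target genes, and the title presents JMJD1B as a demethylase of lysine 9 on histone H3.

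Of the 8 proteins, CD24 is a short, heavily glycosylated surface protein held by a lipid (GPI) anchor and is found on immature B cells and on many carcinomas. EPCAM is a homophilic adhesion protein of epithelium, PTPRF (LAR) a receptor tyrosine phosphatase found at cell contacts, CD276 (B7-H3) a surface protein of the B7 family of immune regulators, and ESAM an adhesion protein of endothelial junctions and platelets. The other three are not surface receptors: BAIAP2L1 (IRTKS) is a membrane-bending adaptor of actin, and SPRR2D and SPRR2F are small proline-rich proteins of the cornified envelope, the protein shell of keratinocytes. All 12 probes were detected on all 5 arrays, and the largest detection p-value, the scanner software's p against negative control beads, was 0.026, so no probe lay near the minimum of detection on 2 arrays at a p under 0.05.

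The cells carried the marks of their label and few of epithelium. Of 14 K562 markers 13 were among the kept probes. On a log2 scale of the normalized signal plus 16 the fetal globin HBG2, the brightest of them, differed by 0.01 between the groups. Whether its signal was saturated, which would hide a difference, was not tested. Of the 13 K562 markers 3 fell in limma at an adjusted p under 0.05, where 3.70% of all genes did. The embryonic globin HBZ fell by 0.56 (adjusted p = 0.0015) and the haem synthesis enzyme gene ALAS2 by 0.51 (adjusted p = 0.0024). The transcriptional regulator gene LMO2 fell by 0.60 (adjusted p = 0.00056). Of 15 epithelial markers 6 were kept, KRT8, KRT18, KRT19, CDH1, CLDN7 and MUC1, while KRT5, KRT14, OCLN, ESRP1, GRHL2 and ELF3 were not. The summed normalized signal of those 6 was 6593 to 6759 in the knockdown arrays and 6551 to 6998 in the controls, so the groups overlapped. Of 11 keratinocyte markers 2 were kept and of 9 endothelial markers 0. Of 14 fibroblast and mesenchyme markers 6 were kept, with summed signals of 54916 to 56225 against 59808 to 62780. Of 9 lymphocyte markers 4 were kept, with summed signals of 3616 to 3763 against 2893 to 3158. The ranges of the last pair of lists did not overlap between the groups, nor did those of the keratinocyte markers (11175 to 11783 against 11907 to 12057) and of the K562 markers (206962 to 211452 against 219496 to 227219), and their part in the results below was not tested. Such sums mostly follow bright genes rather than a whole list. In the K562 list the brightest gene, HBG2, differed by only 0.01, as given above. Less bright genes of that list, such as HBZ and ALAS2, were lower. In limma VIM, the brightest of the fibroblast list, was at -0.15 (adjusted p = 0.18). KRT10, the brightest keratinocyte marker, was at -0.06 (adjusted p = 0.62), and CD3D, the brightest lymphocyte marker, rose by 0.38 (adjusted p = 0.012). In bulk samples such as these, fewer cells carrying a transcript and less RNA per cell cannot be told apart.

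The 8 genes moved mostly one way: 7 of them were lower in the knockdown and ESAM was higher. By the brightest probe of each gene their median difference was -0.50 on the log2 scale, against -0.01 over all 11041 genes. At an adjusted p under 0.05, 9 of the 12 probes were lower, where 2.72% of all probes were, and 1 was higher, where 2.35% of all probes were (5.07% in either direction). Of all calls 46.4% were higher, a share that was 83.8% with no normalization. Of the 12 probes, 10 were lower with no overlap between the groups, against 20.2% of all probes, and 1 was higher with none, against 17.6%. These counts describe the choice of the genes, which used this comparison, and no test of the 8 is given. Below, each probe is given by its deposited signal on every array, in the order knockdown replicates 1, 2 and 3, then control replicates 1 and 2, and by its difference of knockdown minus control on the normalized log2 scale with its standard error (SE, n = 3 and 2).

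**Figure D1:**
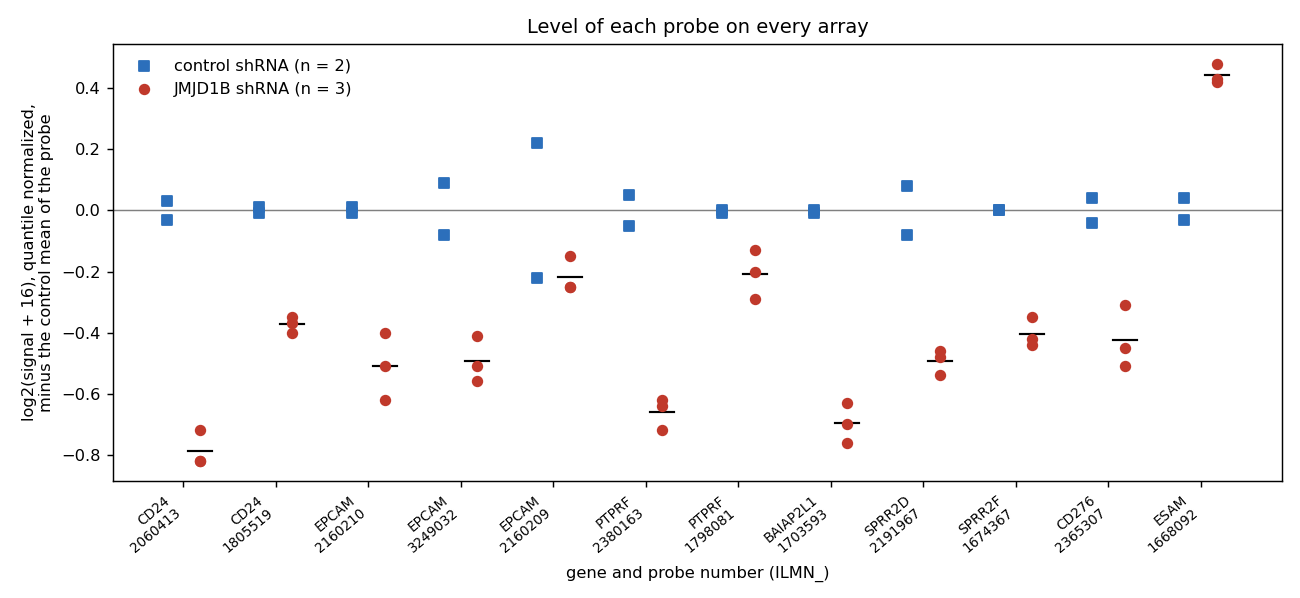
Normalized log2(signal + 16) of each of the 12 probes on every array, minus the control mean of that probe. Squares are the 2 control arrays, circles the 3 knockdown arrays and black lines the knockdown means. The groups stay apart for all probes except EPCAM ILMN_2160209, and ESAM is the only gene above its controls.

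CD24 had the most negative difference of the 8 on the normalized signals, though not after background subtraction, where BAIAP2L1 and PTPRF were lower. Probe ILMN_2060413 had signals of 2071, 1769 and 1752 in the knockdown and of 3036 and 3053 in the control. The knockdown arrays thus sat well below both controls, the difference was -0.79 ± 0.06, or 1.73-fold lower, and only 3 of all 19105 probes had a more negative one (rank 4). The second probe, ILMN_1805519, was dim, with 190, 182 and 174 against 226 and 230, and showed -0.38 ± 0.06. The probes differ in how far they rise above the array background, a median of 124 over probes detected on no array: the control mean was 24.5 times that level on the first probe and 1.84 times on the second. After that background was subtracted from every signal, the differences were -0.83 and -0.88. CD24 has pseudogene copies elsewhere in the genome, and whether the probes tell them apart was not tested.

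RefSeq (GRCh38.p14) annotates 3 start sites for CD24, on the minus strand of chromosome 6. The window from 250 bases before to 50 bases after a start was searched on both strands for 4 motifs. CAGGTG is the E-box form bound by the repressors ZEB1 and SNAI1 among others, and GGGCGG is the GC box of SP1. The motif TATAAA is a TATA box and the motif GATAA a core of GATA factor sites. These motifs were chosen with the sequences and the changes of the genes in view. Over 35116 windows of the same length, 20.6% hold CAGGTG, 45.0% GGGCGG, 11.5% TATAAA and 22.7% GATAA. The third window, chr6:106973990-106974289, the one with more than 1 of the motifs, is shown with matches in capitals: CAGGTG in its first bases, 249 bases before the start, and GGGCGG 71 bases before it.
CD24 promoter: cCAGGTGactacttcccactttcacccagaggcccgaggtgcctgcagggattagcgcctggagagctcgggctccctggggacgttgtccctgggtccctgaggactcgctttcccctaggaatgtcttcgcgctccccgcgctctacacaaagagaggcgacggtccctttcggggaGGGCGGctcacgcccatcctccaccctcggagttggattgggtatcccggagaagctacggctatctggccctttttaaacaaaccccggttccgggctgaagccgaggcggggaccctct
The first window also holds GGGCGG once, 99 bases before its start, and the second holds none of the 4 motifs. CG dinucleotides numbered 25, 36 and 21 in the 3 windows, against a median of 14 over all windows. A match to a motif is a description of the letters and no evidence of binding.

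EPCAM was lower on 2 of its 3 probes, which carry 1 transcript accession on the array. ILMN_2160210 read 2645, 2608 and 2239 against 3274 and 3424, and its difference was -0.51 ± 0.07, or 1.42-fold lower. ILMN_3249032 read 1745, 1437 and 1492 against 1943 and 2243, a difference of -0.50 ± 0.07. On both probes every knockdown array was below every control array. The third probe, ILMN_2160209, read 458, 459 and 425 against 426 and 588. Here the groups overlapped, the controls had an SD of 0.31, and the difference of -0.22 ± 0.11 did not pass the threshold. The value rested on control replicate 2: the difference was 0.01 without that array and -0.44 without control replicate 1, where the probe passed the threshold. No promoter window of EPCAM was used here.

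PTPRF was lower on its brighter probe. ILMN_2380163, which the array assigns to transcript accession NM_002840, read 413, 360 and 382 against 606 and 574, with a difference of -0.66 ± 0.06, or 1.58-fold lower, and a gap of 0.57 between the highest knockdown and the lowest control array on the log2 scale. ILMN_1798081, assigned to NM_130440, another transcript variant of the gene, read 189, 207 and 193 against 215 and 218. Its groups did not overlap either, but the gap was 0.12, and the difference of -0.21 ± 0.07 did not pass the threshold. This second probe is dim, with a control mean 1.75 times the background. With the background subtracted the probes stood at -0.89 and -0.47, and whether the probes or the variants differ was not tested. The PTPRF window (chr1:43530633-43530932, plus strand) holds none of the 4 motifs and has 37 CG dinucleotides, more than 88.7% of all windows.

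BAIAP2L1, which links membrane curvature to actin assembly beneath the plasma membrane, had 1 probe. ILMN_1703593 read 411, 349 and 364 in the knockdown and 582 and 592 in the control. Both control arrays were above every knockdown array, and the difference was -0.69 ± 0.06, or 1.62-fold lower (rank 12 of 19105 from the most negative). After background subtraction it was -0.94. Its promoter, chr7:98401041-98401340 on the minus strand, holds the most CAGGTG of the windows examined. The E-box stands 210, 91 and 30 bases before the start, and GGGCGG occurs 6 times on the opposite strand, read as CCGCCC; all matches are in capitals, and none of them overlap.
BAIAP2L1 promoter: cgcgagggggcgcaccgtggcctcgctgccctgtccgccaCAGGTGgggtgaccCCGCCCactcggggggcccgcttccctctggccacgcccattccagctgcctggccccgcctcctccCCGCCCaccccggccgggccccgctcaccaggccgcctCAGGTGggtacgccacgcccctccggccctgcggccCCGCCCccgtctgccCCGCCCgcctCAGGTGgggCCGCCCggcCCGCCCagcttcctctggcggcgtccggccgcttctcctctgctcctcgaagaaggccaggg
Of all windows 0.635% hold CAGGTG 3 or more times.

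SPRR2D and SPRR2F lie in the cluster of cornified envelope genes on chromosome 1, and both were lower. SPRR2D, on probe ILMN_2191967, had signals of 10137, 9729 and 9570 against 13241 and 12705, with a difference of -0.50 ± 0.07, or 1.41-fold lower. SPRR2F, on ILMN_1674367, read 1626, 1585 and 1518 against 1956 and 2007, a difference of -0.40 ± 0.06, or 1.32-fold lower. On each probe all knockdown arrays were below both controls. The genes of the SPRR2 family are near-identical in sequence, so the probes may read one another's transcripts or those of SPRR2A, SPRR2B, SPRR2E and SPRR2G, which were not among the kept probes; the values of the pair are uncertain as to which copy they measure and are not independent. Unlike the other windows examined, the SPRR2F promoter (chr1:153113467-153113766, minus strand) is poor in CG, with 2 such dinucleotides and a GC content of 47.7% against a median of 58.7%. It holds TATAAA 29 bases before the start and GATAA 139, 114 and 82 bases before it, each in capitals and without overlap.
SPRR2F promoter: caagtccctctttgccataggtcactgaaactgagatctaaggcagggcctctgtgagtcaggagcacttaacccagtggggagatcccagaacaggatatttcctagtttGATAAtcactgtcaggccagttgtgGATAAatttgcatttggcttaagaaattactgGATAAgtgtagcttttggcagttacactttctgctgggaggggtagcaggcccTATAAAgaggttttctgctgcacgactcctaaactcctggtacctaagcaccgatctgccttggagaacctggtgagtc
Of all windows 0.891% hold GATAA 3 or more times.

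CD276 was lower on its single probe, ILMN_2365307, with signals of 944, 999 and 900 against 1242 and 1204. The difference was -0.43 ± 0.07, or 1.34-fold lower, and the groups were 0.28 apart on the log2 scale, the narrowest gap among the 10 probes that passed the threshold. CD276 has 2 annotated start windows, and the first (chr15:73684133-73684432, plus strand) is of the CG-rich, TATA-less kind, with 37 CG dinucleotides, a GC content of 80.3% and 7 copies of GGGCGG on either strand, in capitals, some of which overlap.
CD276 promoter: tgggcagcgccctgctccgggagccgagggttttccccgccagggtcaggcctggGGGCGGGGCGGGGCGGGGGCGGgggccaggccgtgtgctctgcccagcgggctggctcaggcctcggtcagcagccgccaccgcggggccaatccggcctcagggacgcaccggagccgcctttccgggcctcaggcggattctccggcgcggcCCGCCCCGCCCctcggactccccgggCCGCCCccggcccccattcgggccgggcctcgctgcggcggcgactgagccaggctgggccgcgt
Of all windows 9.06% hold GGGCGG 4 or more times.

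ESAM was the only gene of the 8 that was higher. Probe ILMN_1668092 read 285, 284 and 271 in the knockdown and 197 and 185 in the control. All knockdown arrays exceeded both controls, and the difference was 0.44 ± 0.06, or 1.36-fold higher. The control mean was only 1.54 times the background, so the size depends on how background is treated, and after subtraction the difference was 0.89. Defining genes of endothelium, the tissue ESAM is best known from, were not among the kept probes.

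**Figure D2:**
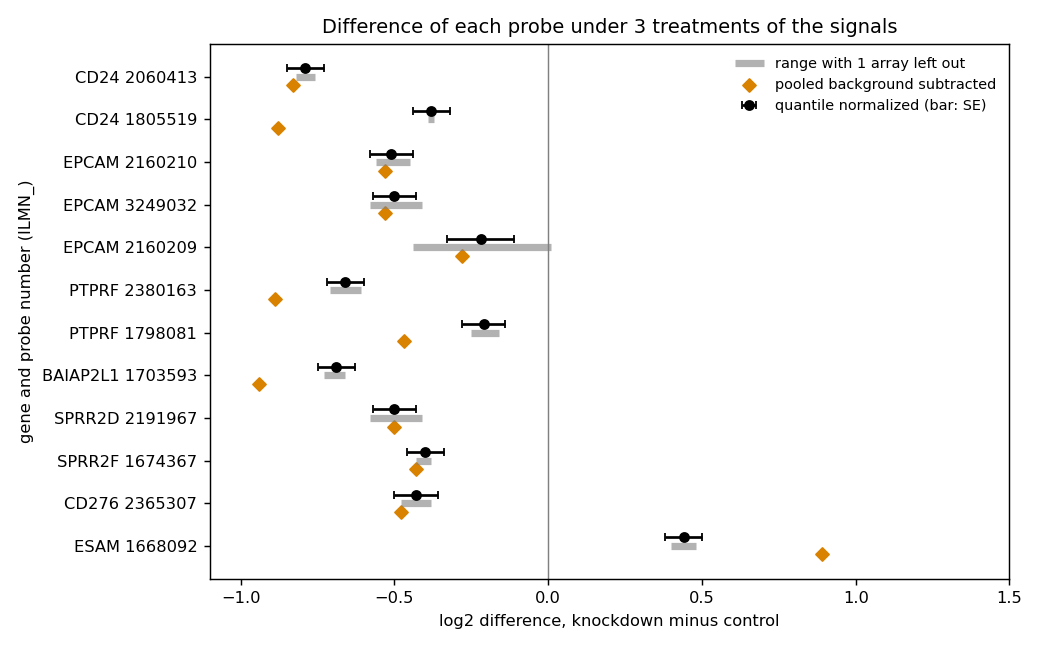
Log2 difference of knockdown minus control for each of the 12 probes. Circles with bars give the difference and its SE from the normalized signals, grey bars the range with 1 array left out, and diamonds the difference after the pooled background was subtracted. Dim probes move outward after subtraction (CD24 ILMN_1805519 from -0.38 to -0.88, ESAM from 0.44 to 0.89), while bright ones hardly move (SPRR2D at -0.50 in both).

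The calls, as opposed to the directions, rested in part on the treatment of background. With the pooled background subtracted 5 of the 10 calls remained, and the same 5 with normexp correction: both CD24 probes, PTPRF ILMN_2380163, BAIAP2L1 and ESAM. EPCAM (-0.53 on each of its 2 called probes), SPRR2D (-0.50), SPRR2F (-0.43) and CD276 (-0.48) lost theirs under subtraction although their differences stayed close to those above. CD276 also lost its call without control replicate 1, at -0.39.

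The genes that work with or resemble the 8 passed the threshold about as often as all genes did. Of 239 genes in 8 lists of relatives and partners, 112 were measured, and 6 of these passed the threshold, 4 lower and 2 higher. That is 5.36% of those measured, beside 6.27% of all genes (3.70% lower and 2.56% higher), and their median difference was -0.02. Among 14 measured epithelial identity genes the median was -0.04 and 1 fell, PERP, a desmosome protein and p53 target, by 0.32 ± 0.07 (adjusted p = 0.023). The keratins KRT8 (-0.06) and KRT19 (0.04), plakoglobin (JUP, 0.11) and E-cadherin (CDH1, -0.14) did not pass. Among 20 paralogues, partners and proteases of EPCAM the median was -0.03. The tetraspanin CD82 rose by 0.48 ± 0.07 (adjusted p = 0.0038), though its next probe stood at 0.04, and the lysosomal protease CTSL fell by 0.40 ± 0.07 (adjusted p = 0.0083). The gamma-secretase subunit gene APH1B was at -0.09 on its brightest probe and at -0.37 on the next (adjusted p = 0.0079). The claudins CLDN7, CLDN12 and CLDN15 were at 0.03, -0.17 and -0.13. The sheddases ADAM10 and ADAM17, which can cut EPCAM at the cell surface, were at 0.12 and -0.02.

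Among 15 GPI-anchored surface proteins and sialic acid or selectin receptors, the class of CD24 and its binding partners, 1 fell, the ephrin EFNA1, by 0.24 ± 0.06 (adjusted p = 0.049), and the median was 0.00. The next probe of EFNA1 did not pass (-0.14, adjusted p = 0.29). Of 12 receptor phosphatases and liprin-type partners 0 passed in limma (3 at an unadjusted p under 0.05, median -0.04), the smallest p-values being those of the actin regulator CTTN (-0.20, adjusted p = 0.09) and the PTPRF-binding liprin PPFIA1 (-0.18, adjusted p = 0.12). Of 18 relatives and actin partners of BAIAP2L1 0 passed in limma (5 at an unadjusted p under 0.05, median 0.02). VASP (0.20) and DIAPH1 (0.20) had the smallest p-values there (adjusted p = 0.11 and 0.14), the next probes of DIAPH1 (0.28, adjusted p = 0.038) and of CYFIP2 (0.31, adjusted p = 0.027, against 0.14 on its brightest) did pass, and the paralogue BAIAP2 was at 0.00. Its partners thus held values on both sides of 0.

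Of 15 measured cornified envelope and epidermal genes 1 rose, the calcium-binding protein S100A4, by 0.36 ± 0.06 (adjusted p = 0.0081), and its next probe rose as well (0.42, adjusted p = 0.0049). The small proline-rich relatives SPRR1A, SPRR1B and SPRR3 were at 0.05, -0.17 and -0.18, and none of the 3 passed. Of 10 B7 and butyrophilin genes 0 passed in limma (2 at an unadjusted p under 0.05, median 0.01), with CD86 at 0.19 and CD80 at -0.19 (adjusted p = 0.13 and 0.15). CD86 was detected on all knockdown arrays and on no control array, but its mean levels were dim, at 7.59 and 7.4. A small shift can carry so dim a probe across the detection limit. Of 8 junctional adhesion genes and scaffolds, the class of ESAM, 1 fell, the tight junction scaffold TJP1, by 0.30 ± 0.07 (adjusted p = 0.03), and the median was 0.01. Its next probe did not pass (-0.18, adjusted p = 0.18).

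**Figure D3:**
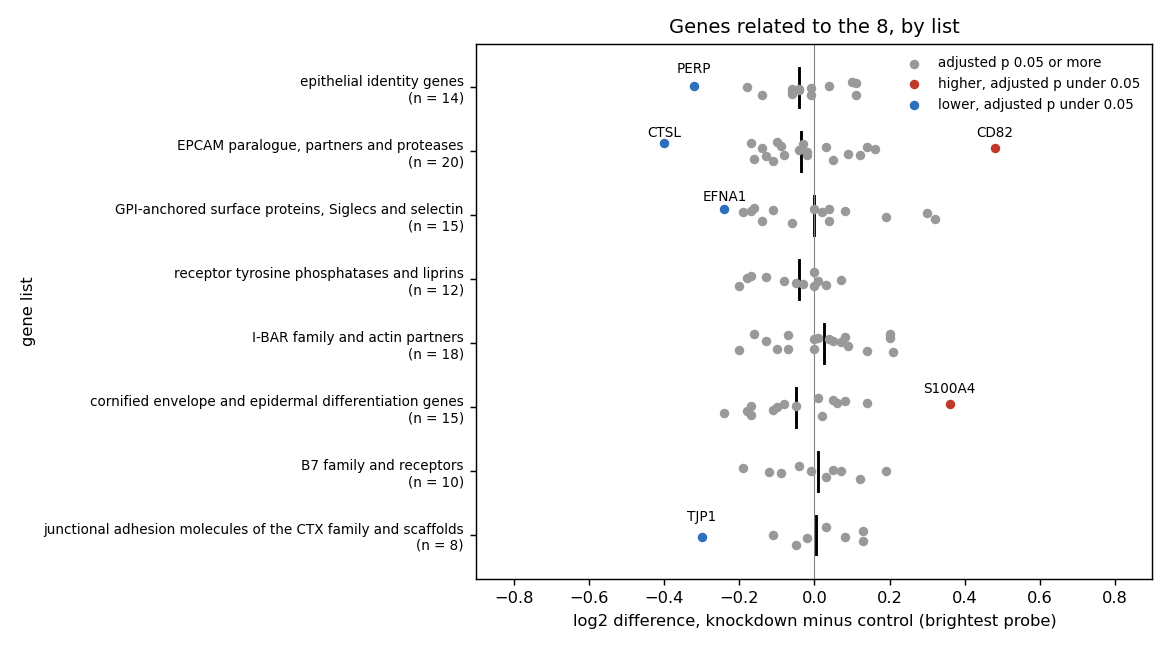
Log2 difference of knockdown minus control for the 112 measured genes of the 8 related lists, 1 point a gene by its brightest probe; black bars are list medians, and vertical scatter within a list has no meaning. Coloured points are the 6 genes with an adjusted p under 0.05, and the medians lie between -0.05 and 0.02.

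With 1 array left out, 5 of these 6 genes lost their call in at least 1 case, while their differences kept their sign. Without control replicate 1 CTSL was at -0.32 (adjusted p = 0.067), and without control replicate 2 S100A4 was at 0.34 (adjusted p = 0.063). PERP lost its call without any of the knockdown arrays (-0.34 to -0.30) and without control replicate 2 (-0.25). TJP1 lost it without knockdown replicate 1 (-0.27) or 2 (-0.28) and without control replicate 1 (-0.27) or 2 (-0.33), and EFNA1 without any 1 array (-0.26 to -0.21).

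Neighbouring genes on the chromosomes were compared with each of the 8. In the order of the RefSeq gene table, the nearest 2 measured genes on each side gave 28 genes besides the 8 themselves. Their median difference was -0.04, with 17 negative and 11 positive, and 0 passed as lower in limma (3 at an unadjusted p under 0.05) and 1 as higher, beside 3.70% and 2.56% of all genes. With 28 genes these counts do not set the neighbours apart from other genes. On either side of CD24, MTRES1 was at -0.11 and QRSL1 at -0.04; on either side of EPCAM, BCYRN1 was at 0.13 and the mismatch repair gene MSH6 at -0.11. KDM4A, itself a histone demethylase gene and the first annotated gene after PTPRF, was at -0.10 (adjusted p = 0.5), and MED8 on the other side at -0.19 (adjusted p = 0.16), the most negative of the 28 by brightest probe, though its next probe stood at 0.03. BRI3 and TRRAP beside BAIAP2L1 were at 0.03 and -0.10, NPTN and STOML1 beside CD276 at -0.05 and 0.04, and NRGN and MSANTD2 beside ESAM at 0.02 and -0.09. The gene that passed was S100A4, already given above, the second measured gene after SPRR2F with 25 annotated genes between them. S100A6, which lies closer, was at -0.05. On the other side of the pair SPRR1B, with 0 annotated genes between it and SPRR2D, was at -0.17 (adjusted p = 0.23). SPRR3, the next measured gene on that side, was at -0.18 (adjusted p = 0.12).

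**Figure D4:**
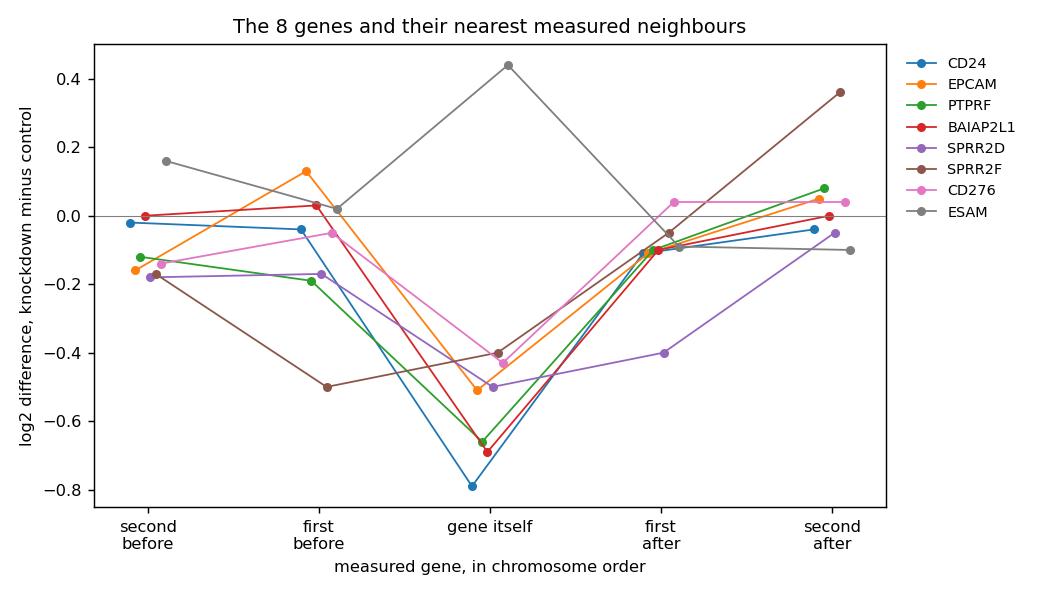
Log2 difference of knockdown minus control for each of the 8 genes (centre) and the 2 nearest measured genes before and after it in chromosome order, joined by a line for each gene. Points are brightest probes; the steps are of gene order, not of distance. SPRR2D and SPRR2F are each other's neighbour, and the neighbours outside the 8 lie between -0.19 and 0.36.

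The genes whose pattern over the 5 arrays was most like that of CD24 were found from the root mean square difference of log2 levels, each gene centred on its own mean. They were RBPMS2 (0.033), an RNA-binding protein gene, VCX3B (0.054), NUPR1 (0.071), a stress-induced chromatin protein gene, PRPH (0.073), an intermediate filament gene, and CDR2L (0.076). Their differences ran from -0.76 to -0.65. Among the 8 genes, BAIAP2L1 (0.055) and PTPRF (0.072) were about as near to CD24 as these, and EPCAM was farther at 0.160. The levels were not scaled, so this distance mostly restates how close the differences of a pair of genes are. The 8 genes were picked with their differences known, and joint regulation was not tested. The nearest to EPCAM were PDK4 (0.036), a kinase that holds back pyruvate oxidation, CFAP161 (0.048), ZFP90 (0.055), TSKU (0.056) and ZNF302 (0.057), with differences of -0.49 to -0.41. Among the 8, CD276 (0.072), SPRR2F (0.074), SPRR2D (0.091), PTPRF (0.130) and BAIAP2L1 (0.133) lay nearer to EPCAM than CD24 did (0.160). Ordered by difference, CD24, BAIAP2L1 and PTPRF (-0.79, -0.69 and -0.66) came before EPCAM, SPRR2D, CD276 and SPRR2F (-0.51 to -0.40). With no normalization the former had -0.71, -0.63 and -0.60 and the latter -0.42 to -0.33. With the background subtracted BAIAP2L1 (-0.94) and PTPRF (-0.89) came before CD24 (-0.83). By the next brightest probe CD24 (-0.38) and PTPRF (-0.21) came behind EPCAM (-0.50), so the order depends on the probe and on the background. The order within the 4 genes of the shallower end is not settled, since their SEs are 0.06 to 0.07.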

How the data were processed

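Bead arrays of 5 samples were used. The authors deposited bead intensity on a linear scale for 19144 probes with sample names, and, per the file headers, the same signals with detection p-values for 47321 probes in 5 columns whose names match no sample. The submitters' processing notes name GenomeStudio 2009.2, with no background or normalization setting. By their range, the deposited intensity values look neither background corrected nor normalized, with a lowest signal of 109.6 and array medians from 455.6 to 498.6.

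Only 47 of the 19144 probe IDs beside the labelled signals belong to the probe with those signals in the larger table. Each row was therefore named by the probe with the same 5 signals, and its detection p-values were attached by equal signal. Symbols came from the platform annotation, updated by gene ID through RefSeq (GRCh38.p14) for 14574 of 14581 probes with 1 symbol; EPCAM is also written TACSTD1. Promoter windows, found for 5 of the 8 genes, are RefSeq's on GRCh38.p14.

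Log2(signal + 16) was quantile normalized between arrays. Probes with detection p under 0.05 on at least 2 arrays were kept and fitted with limma 3.58.1 (R 4.3.3; lmFit and eBayes, group only, 3 residual degrees of freedom), with Benjamini-Hochberg adjustment over 19105 probes and a threshold of 0.05. The fit was tested on simulated data. Folds understate changes of dim genes, because background remains in the signal. The number of arrays limits the precision (median SE 0.07). p-values measure the spread between these arrays, which may be technical. A gene stands for its brightest probe. The 8 genes and the lists were chosen with earlier results of these data known. Beyond the 8, the text names, per list, up to 4 genes past the threshold by p, or else the 2 smallest p; the nearest 2 measured neighbours on each side; and the 5 profiles nearest to CD24 and to EPCAM. Other list members are named as examples. Alternatives changed normalization, offset, background, filter, weights, variance model, probe choice, and added a replicate block or left out arrays.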

Additional observations from a re-analysis of the deposited data

How the results depend on the processing

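All 12 probes of the 8 genes kept their direction under every alternative run, apart from EPCAM ILMN_2160209, which was not past the threshold and stood at 0.01 without control replicate 2. Over all probes, 449 were higher and 519 lower, or 46.4% higher. The numbers were 791 and 153 (83.8% higher) with no normalization, 130 and 92 (58.6%) with the pooled background subtracted, 95 and 52 (64.6%) with normexp on the labelled probes, 194 and 145 (57.2%) with the replicate block, and from 176 to 239 and from 131 to 216 with 1 array left out. The related genes higher and lower, 2 and 4, were 5 and 1 with no normalization, 0 and 0 with background subtracted or with normexp, 1 and 1 with the replicate block, and from 1 to 3 and from 1 to 2 with 1 array left out. The cause was not tested. The labels share replicate numbers 1 and 2 between groups without saying that they pair arrays, so the block was not used. With the block 10 of the 12 probes passed, as without it. Deviations of same-numbered arrays from their group means had r = -0.219 and -0.091 across probes. The deviations of the 2 controls mirror each other, so these values cannot decide whether arrays were paired. For probes near background, such as ESAM and the second probes of CD24 and PTPRF, the size of the difference moved with the treatment of background.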
